A study of Mus musculus with 4 samples.

Results

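Long peaks of moderate tag count were the peaks of at least 500 nt that held fewer than 50 sequence tags, in the IGF2BP2 immunoprecipitation libraries of mouse macrophages, with the mitochondrial chromosome left out. They numbered 670 of 15506 nuclear peaks (4.32%) in replicate 1 and 1440 of 22563 (6.38%) in replicate 2, together 2110 of 38069. The shorter peaks they were set against also held fewer than 50 tags but spanned less than 500 nt, and numbered 14577 and 20424. The study sequenced RNA bound to IGF2BP2 in bone-marrow-derived macrophages (BMDMs), cells grown in culture from bone marrow. It has 4 samples, 2 IGF2BP2 immunoprecipitates and 2 inputs, and the inputs were not analysed here. The labels give no genotype, stimulus or age, and do not say whether the replicates were separate cultures or animals. They also disagree on the antibody, which the sample characteristics give as an antibody to IGF2BP2 and the protocol as an antibody to the Flag tag.

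IGF2BP2 is an RNA-binding protein that reads N6-methyladenosine (m6A), a methyl mark on adenosines of RNA, and is known for keeping its target mRNAs stable. The mark is commonly found in the motif GGAC, in coding sequence near stop codons and in 3' untranslated regions (UTRs). Introns belong to the unspliced precursor RNA and are removed in the nucleus, so a tag in an intron can come from precursor RNA, from a retained intron or from another transcript on the same strand. The labels state that the cDNA was made with random hexamer primers and that PCR products of 200 to 500 bp were kept, so a peak of 500 nt or more is at least as long as the upper limit of those products.

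Coding stretches beneath long peaks that recurred in both libraries are printed here, because they are the transcript sequence around a summit of such peaks. They come from pairs of overlapping long peaks, 1 in each library, with both summits in the coding part of 1 exon. The 6 pairs with the most tags were taken, and up to 240 coding bases around the higher summit are printed 5′ to 3′ on the transcript strand, from GENCODE release 21 transcripts on GRCm38. Capitals mark GGAC, which cannot overlap itself.
Wdfy2: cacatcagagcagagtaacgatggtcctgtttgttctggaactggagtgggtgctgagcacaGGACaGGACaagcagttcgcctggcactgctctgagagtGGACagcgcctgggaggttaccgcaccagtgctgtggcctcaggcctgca
Plekho1: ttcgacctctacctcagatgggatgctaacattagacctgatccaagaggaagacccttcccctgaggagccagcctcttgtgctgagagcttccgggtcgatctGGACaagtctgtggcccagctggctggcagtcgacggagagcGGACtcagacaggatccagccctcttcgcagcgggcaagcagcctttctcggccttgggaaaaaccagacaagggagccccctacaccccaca
Tnrc18: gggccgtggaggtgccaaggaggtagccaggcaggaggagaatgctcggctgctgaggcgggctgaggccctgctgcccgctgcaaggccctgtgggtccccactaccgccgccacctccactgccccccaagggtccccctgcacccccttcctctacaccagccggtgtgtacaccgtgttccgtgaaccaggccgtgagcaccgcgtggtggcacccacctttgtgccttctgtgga
Man1c1: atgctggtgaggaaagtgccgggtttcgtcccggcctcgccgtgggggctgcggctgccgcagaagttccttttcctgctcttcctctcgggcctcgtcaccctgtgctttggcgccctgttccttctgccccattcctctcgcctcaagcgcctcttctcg
Arhgap25: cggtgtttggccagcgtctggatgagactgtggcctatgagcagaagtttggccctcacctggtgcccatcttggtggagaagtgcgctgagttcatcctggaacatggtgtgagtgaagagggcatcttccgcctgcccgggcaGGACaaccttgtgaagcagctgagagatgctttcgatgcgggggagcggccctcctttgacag
Ppp1r18: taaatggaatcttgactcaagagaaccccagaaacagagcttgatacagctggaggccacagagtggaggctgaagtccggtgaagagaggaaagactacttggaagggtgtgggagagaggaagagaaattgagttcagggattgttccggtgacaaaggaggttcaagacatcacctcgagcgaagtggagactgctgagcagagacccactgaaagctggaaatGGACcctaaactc

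The Wdfy2 stretch, chr14:62930228-62930378 on the plus strand, is the whole of exon 5 of 12 (151 nt) and holds 3 GGAC. Wdfy2 encodes an early endosomal protein with WD repeats and a FYVE domain. The long peak over it had 40 tags and 546 nt in replicate 1, and 49 tags and 765 nt in replicate 2, with summits 8 nt apart. In both libraries most of that peak lay in the flanking introns while its summit lay in the exon. Arhgap25, which encodes a GTPase-activating protein for Rac in leukocytes, gave exon 5 of 11 (208 nt), chr6:87476143-87476350 on the minus strand. Its long peak had 27 tags over 508 nt and 48 tags over 757 nt, and also ran past both ends of the exon.

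The other 4 stretches lay in large exons. The Plekho1 stretch, chr3:95989392-95989631 on the minus strand, was part of the last exon (1205 nt) of the gene for a membrane-associated protein with a pleckstrin homology domain. Its peak had 35 tags in replicate 1 and 44 in replicate 2, with summits 3 nt apart. The Tnrc18 stretch, chr5:142788141-142788380 on the minus strand, lay in exon 4 (1626 nt), under peaks of 28 and 49 tags with summits 276 nt apart. Man1c1, a Golgi mannosidase gene, gave the coding start in exon 1 at chr4:134703308-134703469 on the minus strand, with 30 and 46 tags. Ppp1r18, which encodes a regulatory subunit of protein phosphatase 1, gave chr17:35867951-35868190 on the plus strand in exon 1 (2171 nt), with 25 and 48 tags. The stretches of Tnrc18 and Man1c1 held no GGAC in the coding bases printed. The Tnrc18 stretch does not reach the summit of replicate 1. The Man1c1 stretch begins at the start codon, so the 5′ UTR beneath its peaks was not searched.

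The peaks were chosen by their length and tag count, and the maximum height is built from the same tags, so these 3 measures are given as a description without a test. Long peaks had a median length of 606.5 nt (500 to 1239) in replicate 1 and 626 nt (500 to 1530) in replicate 2, against 189 and 203 nt in shorter peaks. They held a median of 23 and 25 tags, in both libraries between 6 and 49, against 6 and 8 tags in shorter peaks. Tags per 100 nt were close, with medians of 3.63 and 3.74 in long peaks against 3.63 and 3.83 in shorter peaks. Long peaks thus carried more tags at about the same density. They held 9.72% and 12.3% of all tags in nuclear peaks and 12.2% and 16.3% of the bases that nuclear peaks cover. A length of 1000 nt or more was reached by 20 and 66 of them.

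The maximum height counts the tags stacked where a peak is deepest, and divided by the tag count it says how much of a peak piles up in 1 place. In long peaks a median of 50% of the tags were stacked in replicate 1 (22.7 to 85.7%) and 48.5% in replicate 2 (19.6 to 84.8%). In shorter peaks the median was 100% in both. No long peak had all of its tags over a single position, against 9174 (62.9%) and 11520 (56.4%) of the shorter peaks. Fewer than 50% of the tags were stacked in 333 (49.7%) and 731 (50.8%) of the long peaks, against 101 (0.693%) and 161 (0.788%) of the shorter peaks. A long peak was therefore typically a run of tags of which about 50% never met at its summit.

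The difference in stacking remained at matched tag counts. Length, which chose the peaks, was not matched, so this too is a description. Among peaks of 10 to 14 tags the median stacked share was 54.5% and 57.1% in long peaks against 81.8% and 83.3% in shorter peaks. Among peaks of 20 to 29 tags it was 47.9% and 48.1% against 73.9% and 73.1%. Among peaks of 40 to 49 tags it was 39.5% and 40% against 69.5% and 68.6%. In every tag class that held long peaks, the upper quartile of the long peaks lay below the lower quartile of the shorter peaks. The difference in medians over all tag counts was -50.8 ± 1.07 percentage points (SD, n = 2 libraries) and -24.5 ± 0.463 with the shorter peaks weighted to the tag counts of the long peaks. Long peaks made up 0.327% and 0.292% of peaks with 6 to 9 tags and 49% and 59.4% of peaks with 40 to 49 tags.

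**Figure D1:**
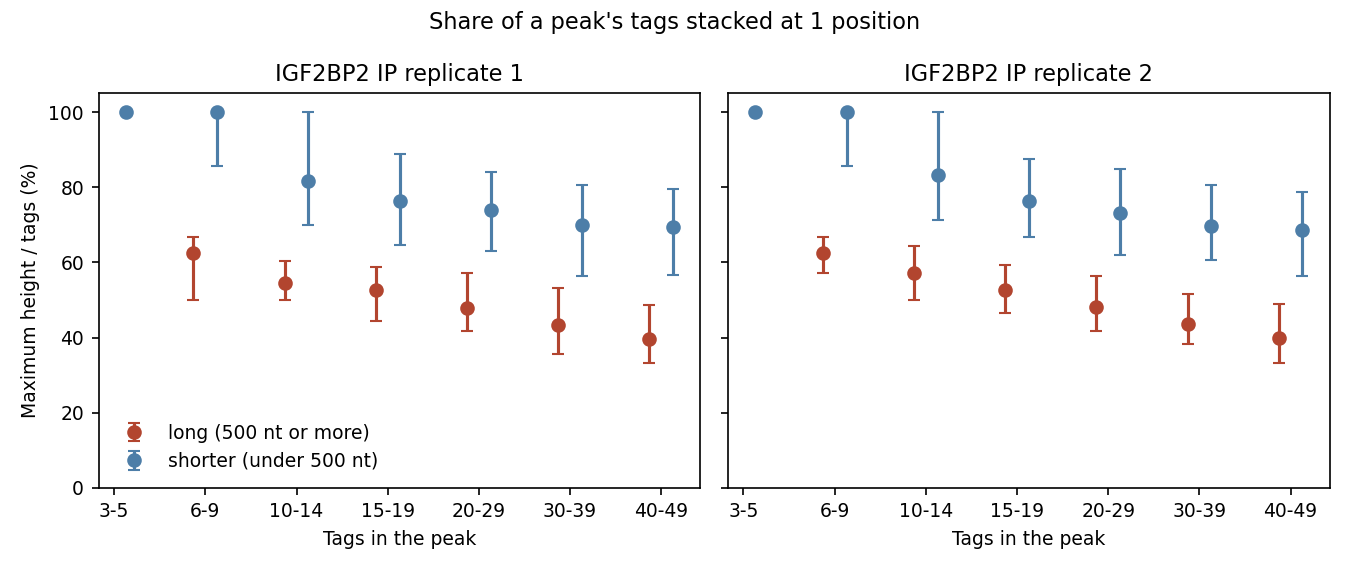
Maximum height as a percentage of tags (y axis) by the number of tags in the peak (x axis), for long peaks (red) and shorter peaks (blue) in each library; points are medians and bars run from the lower to the upper quartile. The medians of the long peaks lie between 39.5 and 62.5%, below those of the shorter peaks in every tag class that holds both.

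The stacked share lay close together on either side of each limit of the definition. Peaks of 500 to 509 nt numbered 47 and 71 and had 57.1% and 60% of their tags stacked, against 60% and 58.8% in the 45 and 98 peaks of 490 to 499 nt. Long peaks of 45 to 49 tags had 35.6% and 40% stacked, against 34.3% and 40.4% in long peaks of 50 to 54 tags. The intron share was 51.1% and 63.4% just inside the length limit against 57.8% and 54.1% just outside it, and 63.6% and 62.4% just inside the tag limit against 55% and 69.8% just outside it. Its difference had opposite signs in the libraries at both limits.

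By the region covering most of each peak, long peaks lay mostly in introns and seldom in coding sequence. The regions are those of the authors' annotation. Wholly within introns lay 294 (43.9%) and 664 (46.1%) of the long peaks, against 25.4% and 25.6% of the shorter peaks. The counts that follow are by the region covering most of the peak. Introns held 370 of 670 long peaks (55.2%, 95% interval 51.4 to 59.0) in replicate 1 and 861 of 1440 (59.8%, 57.2 to 62.3) in replicate 2, against 31.8% and 33.2% of the shorter peaks. Coding sequence held 88 (13.1%, 10.7 to 15.9) and 168 (11.7%, 10.1 to 13.4), against 42.1% and 40.6%. The 3' UTR held 153 (22.8%, 19.7 to 26.2) and 285 (19.8%, 17.8 to 21.9), against 10.2% and 9.3%. These intervals are exact binomial and cover counting error only, since neighbouring peaks share transcripts and PCR copies were not removed by molecular identifiers.

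Averaged over the libraries, the intron share was 25 ± 2.25 percentage points higher in long than in shorter peaks, the 3' UTR share 11.6 ± 1.54 points higher, and the coding share differed by -29.0 ± 0.082 points (SD, n = 2). Each difference had the same direction in both libraries and was larger than the spread between them. With the shorter peaks weighted to the tag counts of the long peaks, their coding share was 58.0% and 54.8%, their intron share 27.2% and 32.3% and their 3' UTR share 10.8% and 8.62%. The distance in coding share from the long peaks was then wider. Intergenic sequence held 5.37% and 5.90% of the long peaks, against 8.74% and 9.43% of the shorter peaks unweighted and 1.86% and 1.62% weighted, so the sign of this difference turned. Antisense peaks made up 0.746% and 1.04% of the long peaks, with 5 and 15 peaks, against 4.42% and 4.66% of the shorter peaks unweighted and 0.497% and 0.365% weighted.

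**Figure D2:**
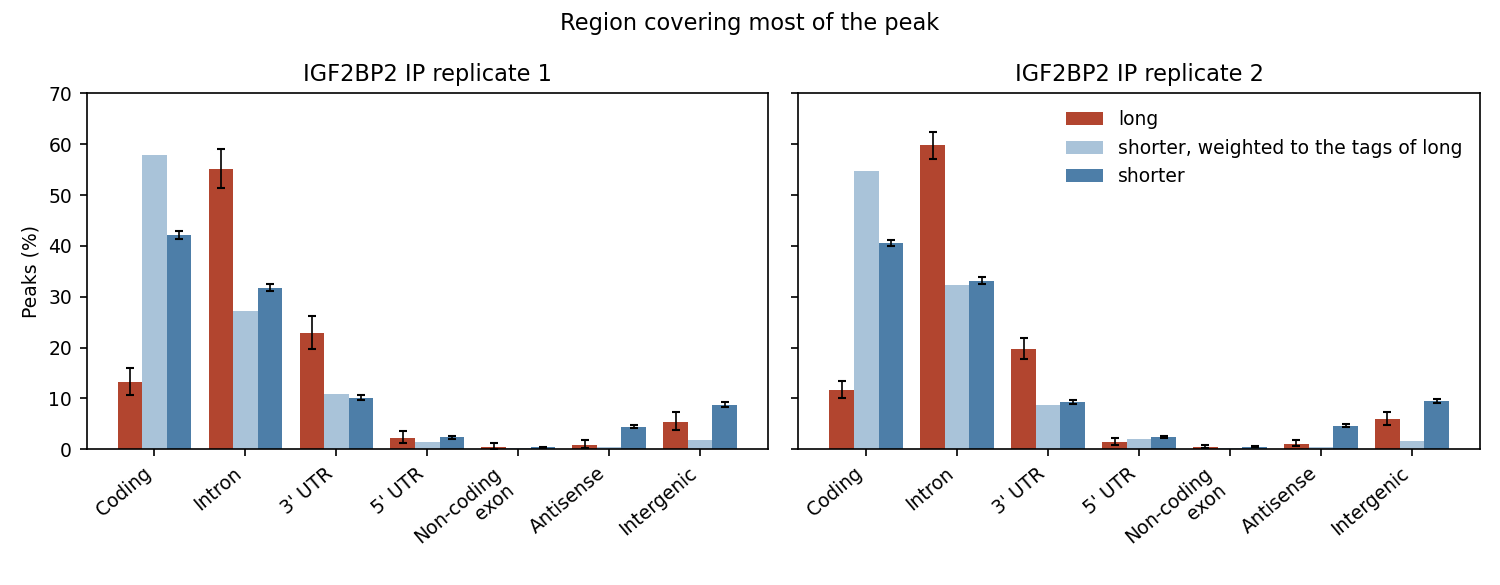
Percentage of peaks (y axis) whose largest part lies in each transcript region (x axis), for long peaks (red), shorter peaks weighted to the tag counts of the long peaks (light blue) and shorter peaks (dark blue) in each library; bars on the unweighted sets are exact binomial 95% intervals. Introns hold 55.2 and 59.8% of long peaks and coding sequence 13.1 and 11.7%.

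The shift in region ran along the whole range of lengths. Among peaks of 10 to 49 tags, coding sequence held 14.5% and 13.4% of those of 500 to 599 nt, against 94.4% and 92.7% of those under 100 nt. Introns held 51.9% and 56.4% of those of 500 to 599 nt, against 0.532% and 1.66% of those under 100 nt. Most of the change had taken place by 400 to 499 nt, where introns held 50.5% and 56.6%. At 1000 nt or more introns held 80% of 20 and 68.2% of 66 peaks. Within the long peaks the tag count and the stacked share differed little between introns, 3' UTRs and coding sequence. Median tags were 24 and 25 in introns, 23 and 26 in 3' UTRs, and 24 and 25.5 in coding sequence. Medians were lower in intergenic (17 and 18) and antisense (16 and 18) long peaks.

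Counted over all kinds of border, long peaks crossed regions less often than shorter peaks of the same tag count. More than 1 region class was touched by 24.2% (21 to 27.6) and 26.7% (24.5 to 29.1) of long peaks, against 21.4% and 23.1% of shorter peaks. Weighted to the tag counts of the long peaks, the share among shorter peaks was 46.8% and 49.2%, so the sign of the difference turned. Coding sequence and intron were joined in 102 (15.2%) and 272 (18.9%) of the long peaks, against 15.9% and 17.7% of the shorter peaks, or 39.2% and 41.6% weighted. In such long peaks the intron made up a median of 66% and 65.5% of the peak, against 43% and 45% in shorter ones. The summit still lay in an exon in 74 of 101 (73.3%) and 194 of 271 (71.6%) that could be placed on the annotation, against 72.8% and 74.4% in shorter ones. Wdfy2 exon 5, printed above, is such a case. Coding sequence and 3' UTR were joined, as at a stop codon, in 48 (7.16%) and 111 (7.71%) long peaks, against 3.26% and 3.31% of the shorter peaks, or 5.43% and 5.76% weighted. This kind of crossing was thus more common in long peaks at matched tag counts too.

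Intronic long peaks sat in very long introns. Of those lying wholly within introns, 282 and 628 could be placed in 1 intron of a reference transcript. Values here and on position below count each peak once, so an intron with several peaks weighs more. Among these long peaks 62.8% and 59.2% shared their intron with another long peak. Among shorter peaks 44.0% and 48.7% shared it with another shorter peak. The host intron had a median length of 41810 and 41532 nt for long peaks, against 23220 and 24978.5 nt for shorter peaks and 1334 nt over all 188239 annotated introns. Shorter intronic peaks of at least 10 tags had host introns of 35696 and 37698.5 nt, so much of the gap to the other shorter peaks went with tag count. Introns of 10000 nt or more held 81.9% (76.9 to 86.2) and 83.0% (79.8 to 85.8) of the long peaks, against 67.9% and 69.4% of the shorter peaks. Such introns made up 8.71% of all introns, and since they also hold most intronic bases this share is no measure of preference.

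Within these introns the long peaks lay far from exons and towards the 5′ end. Their median distance to the nearest exon was 6630 and 7010 nt, against 3957 and 4235 nt for shorter peaks. The 5′ 50% of the intron held 74.1% (68.6 to 79.1) and 71.2% (67.5 to 74.7) of long peaks, against 63.6% and 63.8% of shorter peaks. The first intron held 41.5% and 42.2%, against 36.1% and 35.3%, or 42.5% and 40.7% with at least 10 tags. Restricted to at least 10 tags in both sets, the distance was 6770 and 6964 nt against 5912.5 and 5606.5 nt, and the share in the 5′ 50% was 74.4% and 70.9% against 68.5% and 69.7%. The summit lay in an annotated retained-intron transcript for 2 (0.709%) and 16 (2.55%) of the long peaks, against 4.18% and 4.37% of the shorter peaks.

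**Figure D3:**
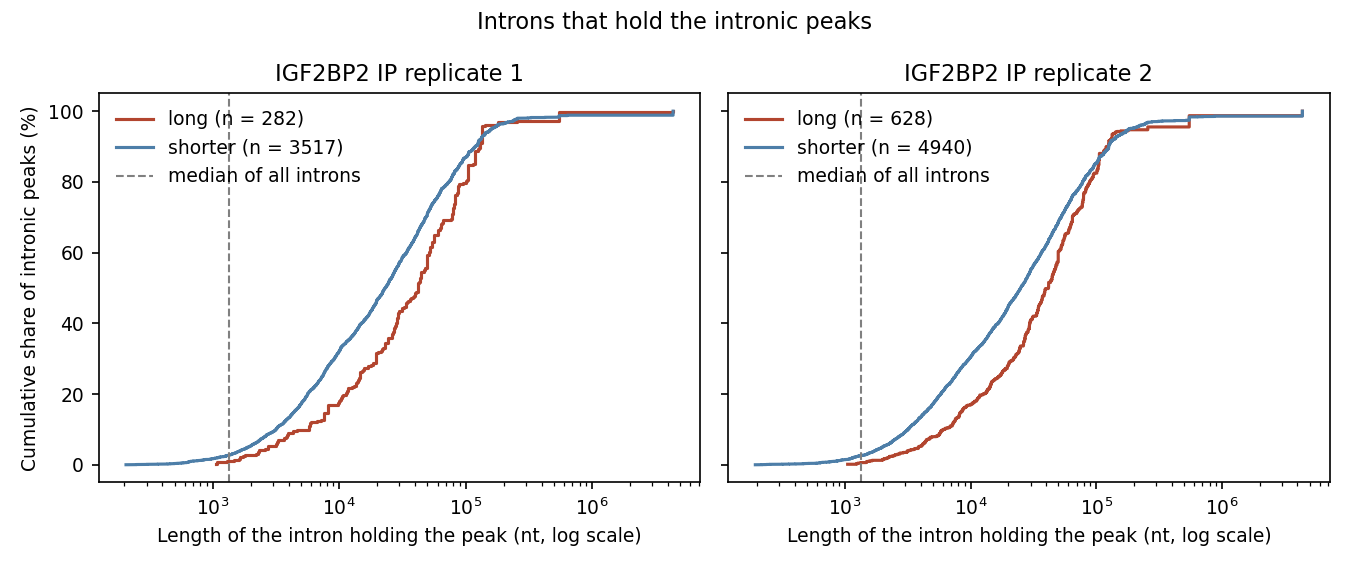
Cumulative percentage of intronic peaks (y axis) by the length of the intron that holds them (x axis, nt, log scale), for long peaks (red) and shorter peaks (blue) in each library; the dashed line marks the median of all annotated introns, 1334 nt. The curve of the long peaks lies to the right, with medians of 41810 and 41532 nt against 23220 and 24978.5 nt.

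Many introns with a long peak in replicate 1 also had one in replicate 2. Long peaks occupied 163 introns in replicate 1 and 377 in replicate 2, of which 96 held a long peak in both, 58.9% and 25.5% of each list. These 96 introns held 75.4% and 43.2% of the long peaks placed in introns. Of the introns with at least 2 long peaks in 1 library, 47 of 51 (92.2%) and 56 of 116 (48.3%) also held a long peak in the other library. How often shorter peaks share introns in this way was not tested.

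Intron 3 of Bcar3 (49834 nt, chr3:122455093-122504926), in the gene of an adaptor protein that binds p130Cas, held the most summed over both libraries. It had 10 long peaks of 16 to 41 tags among 27 peaks in replicate 1 and 19 long peaks of 20 to 49 tags among 39 peaks in replicate 2. The midpoints of the long peaks lay between 4.51% and 83.6% of the way along the intron in replicate 1 and between 1.04% and 96.5% in replicate 2, so they were spread along most of its length. Intron 2 of Lrmda (550520 nt), in a gene linked to melanocyte differentiation, held 7 and 20 long peaks among 23 and 66 peaks. There the midpoints lay between 3.52% and 56.7% of the intron in replicate 1 and between 2.32% and 42.5% in replicate 2, with medians of 11.9% and 11.1%.

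Intron 1 of Mitf (133765 nt), the gene of a transcription factor of macrophages, osteoclasts and melanocytes, held 13 and 8 long peaks among 26 and 26 peaks. Its peaks of all kinds held 791 tags in replicate 1 and 1555 in replicate 2, while its long peaks under 50 tags held 479 and 308. Most of its tags in replicate 2 thus lay in other peaks. Intron 1 of Ptprj (105166 nt), which encodes the receptor tyrosine phosphatase CD148, held 11 and 9. Intron 1 of Cmip (119673 nt) held 10 and 5, and intron 1 of Myo1e (79208 nt), the gene of an unconventional myosin, held 5 and 8. In each of these 4 introns both libraries held at least 5 long peaks.

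Long peaks of the 3' UTR lay in long UTRs. For the 103 and 166 placed in a last-exon UTR, the UTR had a median length of 3267 and 3041.5 nt, against 2564.5 and 2698 nt for shorter peaks and 777 nt over all annotated 3' UTRs. Against shorter peaks of at least 10 tags, with 2820 and 2832 nt, the gap was smaller. A UTR of under 500 nt cannot hold a whole long peak, so part of this follows from the definition. The long peaks stood at a median of 46.4% and 43.7% of the way along the UTR, against 41.1% and 43.0% for shorter peaks. These medians lay within a few percentage points of each other.

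The longest 3' UTR stretch shared by both libraries was in Tspan14, the gene of a tetraspanin. Its long peaks spanned 1089 nt with 44 tags and 888 nt with 39 tags, at most 10 and 12 of them at 1 position, and shared 861 nt in the minus-strand UTR at chr14:40906534-40907394. In Tfe3, whose product is a transcription factor of the Mitf family controlling lysosomal genes, the last exon held 1 long peak in each library, with 24 and 18 tags.

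Coding long peaks lay in unusually large exons. Of the long peaks wholly in coding sequence, 44 of 51 and 72 of 82 fitted within 1 exon, with a median exon length of 2296 and 2166.5 nt, against 212.5 and 219 nt for shorter peaks. An exon that holds a whole long peak has at least 500 nt, so this too follows in part from the definition. Among all mainly coding long peaks, 2 of 88 and 20 of 168 contained an entire intron, with a median intron of 97 and 107.5 nt. Exon 11 of Srrm2 (6569 nt), the gene of a large splicing scaffold protein, held 3 long peaks in replicate 1, with 31, 35 and 28 tags. Macf1, which encodes a giant linker of microtubules and actin, had coding long peaks of 15 and 24 tags in replicate 1 and of 34 and 21 tags in replicate 2.

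GGAC was about as dense in coding long peaks as in coding sequence at large. Long peaks within 1 coding exon held 4.96 and 4.75 GGAC per kb, against 5.53 and 5.28 in shorter peaks and 4.92 over the coding sequence of all representative mRNAs. In 3' UTRs long peaks held 3.9 and 3.42 per kb, against 3.56 and 3.45 in shorter peaks and 2.88 over all 3' UTRs. At least 1 GGAC stood in 93.2% and 90.3% of coding long peaks and in 82.5% and 88.6% of 3' UTR long peaks. Of coding and 3' UTR windows of 500 nt cut from all representative mRNAs, 89.0% and 72.2% held it. Long peaks are as long as these windows or longer, and a longer stretch holds a motif more easily. The 3' UTR long peaks were also richer in G and C, with 49.7% and 48.2% of bases against 42.9% over all 3' UTRs. The search read the transcript strand only. The intronic long peaks were not searched.

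A long peak was more often met again in the other library than a shorter peak, and less often than a shorter peak of the same tag count. A peak of the other library overlapped 399 of 670 long peaks of replicate 1 (59.6%, 55.7 to 63.3) and 570 of 1440 of replicate 2 (39.6%, 37.0 to 42.2). Overlap means at least 1 bp on the same strand. Of all nuclear peaks 34.8% and 23.6% were overlapped, and of the shorter peaks 33.0% and 20.7%. Weighted to the tag counts of the long peaks, the shorter peaks reached 72.1% and 56.7%. The difference was 22.7 ± 5.46 percentage points unweighted and -14.8 ± 3.27 weighted (SD, n = 2), so its sign depended on whether tag counts were matched. Region was not matched. Coding sequence held 58.0% and 54.8% of the weighted shorter peaks against 13.1% and 11.7% of the long peaks. Whether the difference remains within 1 region at matched tag counts was not tested.

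A longer peak meets another more easily by its length alone, so summits were compared as well. A summit of the other library lay within 100 nt of the summit of 221 (33.0%) and 327 (22.7%) long peaks, against 28.2% and 19.4% of all nuclear peaks. Among shorter peaks it was 27.5% and 17.8%, or 61.3% and 49.7% weighted. At 20 to 29 tags, 36.2% and 21.4% of long peaks had such a summit against 64.0% and 47.8% of shorter peaks. At 40 to 49 tags it was 45.5% and 33.7% against 75% and 66.2%. Where a long peak was overlapped, its summit lay a median of 93 and 78.5 nt from that of the partner sharing most bases with it. For overlapped shorter peaks this distance was 28 and 26 nt.

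**Figure D4:**
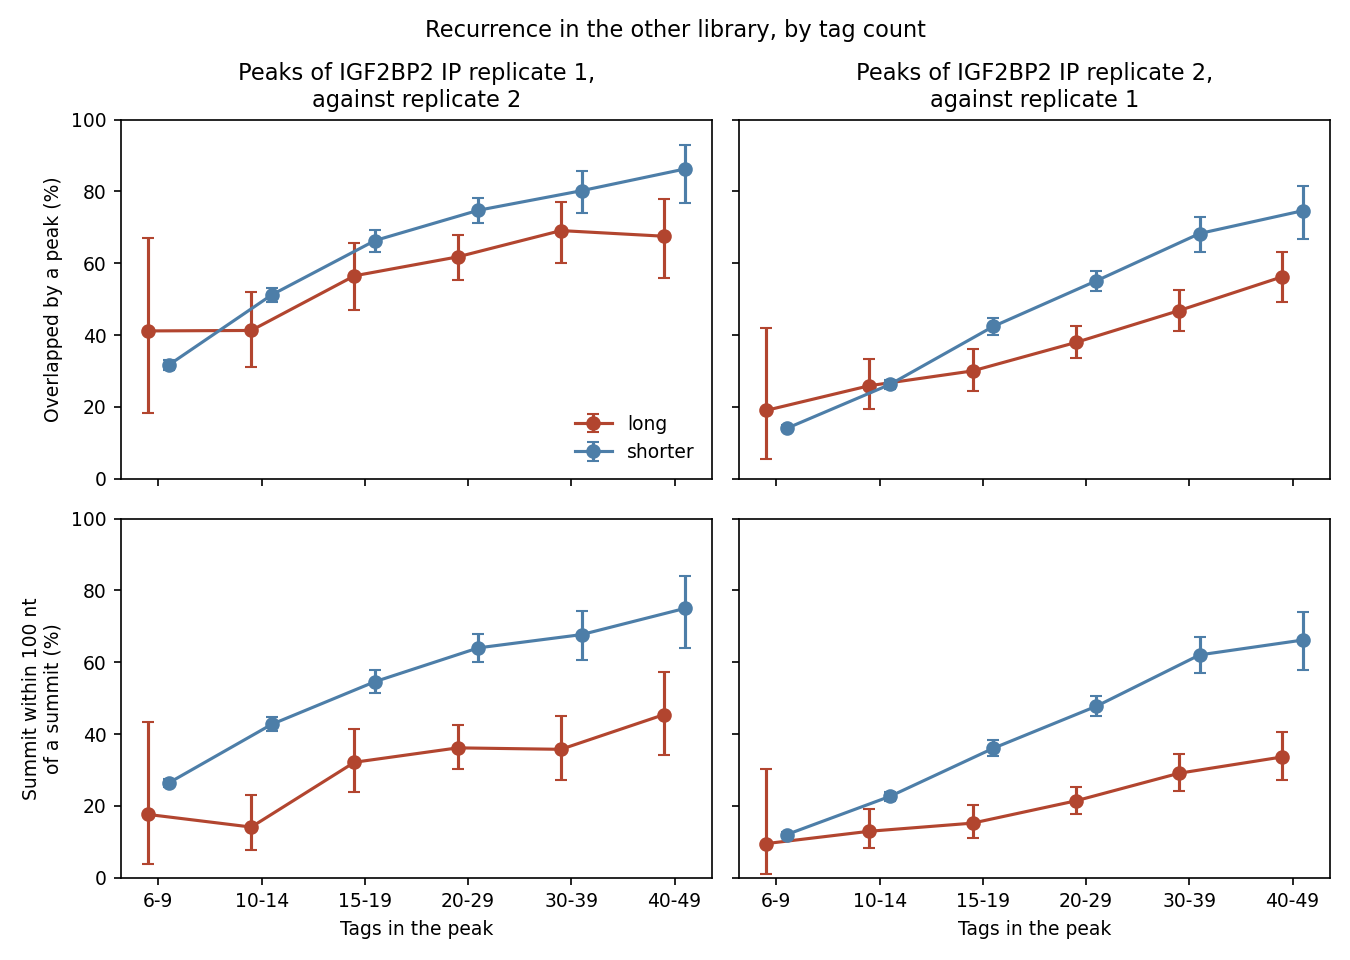
Percentage of peaks overlapped by a peak of the other library (upper panels, y axis) and percentage with a summit of the other library within 100 nt (lower panels) by tags in the peak (x axis), for long peaks (red) and shorter peaks (blue) of each library; bars are exact binomial 95% intervals. From 20 tags upwards the long peaks lie below the shorter peaks in all 4 panels, as at 40 to 49 tags with 67.5 and 56.2% overlapped against 86.2 and 74.6%.

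The partner of a long peak was often a shorter peak. Among overlapped long peaks the best partner was under 500 nt in 158 of 399 (39.6%) in replicate 1 and 421 of 570 (73.9%) in replicate 2. Its median length was 621 and 367 nt. A partner that was itself a long peak of under 50 tags was found for 144 (21.5%) and 146 (10.1%) of the long peaks, against 3.28% and 0.906% of shorter peaks, or 6.58% and 3.79% weighted. At least 2 peaks of the other library were overlapped by 43 (6.42%) and 62 (4.31%) long peaks, against 0.597% and 0.338% of shorter peaks. A longer peak meets both measures more easily by its length alone. By region, 54.3% and 28.9% of intronic long peaks were overlapped, 68.0% and 57.9% of those in 3' UTRs, and 64.8% and 53.0% of those in coding sequence. Among shorter peaks these shares were 20.5% and 12.9% in introns, 36.5% and 23.4% in 3' UTRs, and 45.5% and 29.7% in coding sequence. Introns had the lowest share of these 3 in long and shorter peaks alike.

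The long peaks paired across the libraries formed 147 pairs in 109 genes, and 144 pairs had the same region class on both sides. They shared a median of 529 nt (8 to 941), or 69.3% of the stretch that either covered. Their summits lay a median of 137 nt apart and within 100 nt in 64 pairs. Introns held 64 pairs, 3' UTRs 44 and coding sequence 22. These pairs were picked for overlapping, so their shared length is a description.

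By the region covering most of each peak, the pairs with the most tags summed over both libraries were mainly intronic. Itsn1, the gene of an endocytic scaffold protein, had 46 tags over 793 nt in replicate 1 and 49 tags over 1002 nt in replicate 2, in an intron at chr16:91740980-91741772. At most 16 and 18 of those tags stood at 1 position. Pitpna, which encodes a phosphatidylinositol transfer protein, had 49 and 43 tags in mainly intronic peaks that shared 898 nt. Both peaks ran past the 3′ end of intron 1 of the reference transcript, and the summit of replicate 1 lay just beyond it. Iqgap1, the gene of an actin-binding scaffold, had 48 and 40 tags in mainly intronic peaks that shared 798 nt. In Wdfy2 a second pair of 43 and 49 tags lay in an intron, with summits 2 nt apart. A pair of 38 and 49 tags that the authors' annotation calls intergenic, chr14:62960408-62961061 in replicate 1, lies within the span of Wdfy2 in GENCODE. The longest shared stretch, 941 nt, was in an intron of Rab3il1, with 30 tags over 941 nt and 49 tags over 1181 nt, followed by 919 nt in an intron of Evl, whose product elongates actin filaments.

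Such intergenic cases were common. Of the 36 and 85 long peaks called intergenic, 18 (50%) and 43 (50.6%) lay in a GENCODE gene on the same strand, against 26.8% and 26.1% of shorter intergenic peaks. A further 10 (27.8%) and 35 (41.2%) lay within 10000 nt downstream of a gene, against 40.7% and 45.6% of shorter intergenic peaks. The intergenic class of long peaks therefore includes sequence that another annotation places in or next to genes.

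In all, 625 and 1329 long peaks lay in sense in 371 and 766 genes, which is 7.50% and 12.7% of the 4944 and 6035 genes with any peak. Both libraries had a long peak in 235 genes, 63.3% and 30.7% of each list. Any peak in both libraries was found for 3802 genes, 76.9% and 63.0% of the genes with a peak. Of the genes with a long peak in a library, 69.8% and 68.0% had a single long peak, and 16 and 42 had at least 5. The 15 genes with most long peaks held 117 and 155, of which 110 (94.0%) and 149 (96.1%) were intronic. In these genes 69 (59.0%) and 59 (38.1%) long peaks were overlapped by a peak of the other library. This was near the 59.6% and 39.6% of all long peaks. A long partner was found for 23 of the 117 and 23 of the 155, against 21.5% and 10.1% of all long peaks.

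Bcar3 had 12 and 20 long peaks, all in introns, of which 9 and 11 were overlapped in the other library. Lrmda had 7 and 20, and Ptprj 12 in each library. Mitf had 13 and 8, 9 and 3 of them overlapped. Snx29, a sorting nexin gene, had 6 and 16. Cblb, the gene of an E3 ubiquitin ligase that restrains immune receptor signalling, had 5 and 11, and Mtss1, which encodes a membrane-bending protein, had 9 and 3 with no long partner in the other library. The order of the genes differed between the libraries, with 2010111I01Rik and Mitf first in replicate 1 (13 each) and Bcar3 and Lrmda first in replicate 2 (20 each).

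**Figure D5:**
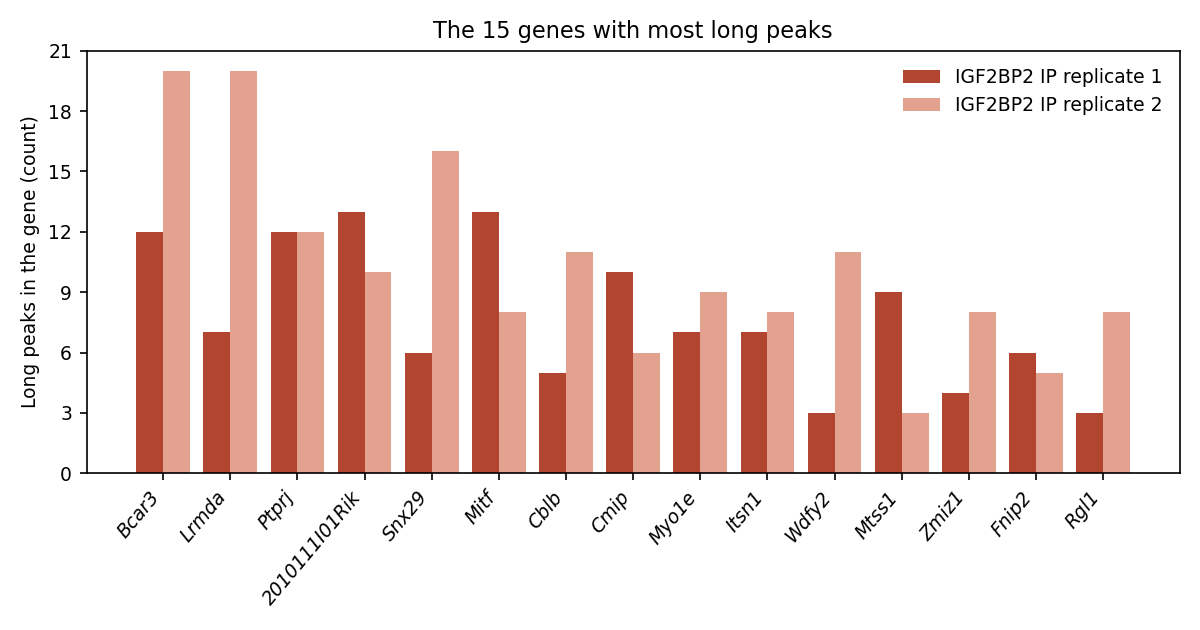
Number of long peaks (y axis) in each of the 15 genes with most long peaks (x axis), in replicate 1 (dark) and replicate 2 (light) of the IGF2BP2 immunoprecipitates, which have no spread of their own. Bcar3, with 12 and 20, has the highest sum over both, and the replicates differ in most genes.

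The genes named in the title of the study had few peaks, of which 1 was long. Over all genes, long peaks made up 4.72% and 7.05% of sense peaks under 50 tags. The single long peak among so few peaks thus shows no lack of long ones. Tsc1, which encodes hamartin, a brake on mTORC1 signalling, had none among its 1 and 3 peaks. Pparg, the gene of the lipid-sensing nuclear receptor PPARγ, had none among 3 peaks in replicate 1 and 1 among 10 in replicate 2. That peak spanned 639 nt of intron at chr6:115385196-115385834 with 22 tags, at most 8 at 1 position, and no peak of the other library overlapped it. Igf2bp2 itself had 0 and 3 peaks, none of them long.

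The share of long peaks among sense peaks under 50 tags is given for 8 gene lists, beside 4.72% and 7.05% over all genes. It was 20.6% (20 of 97) and 18.6% (18 of 97) in the TSC and mTORC1 list of 40 genes. Of those, Mitf held 13 and 8 and Fnip2, which encodes a folliculin-interacting regulator of mTORC1, 6 and 5. Tfe3 held the other long peak in replicate 1. Counted by genes, 3 of 29 listed genes with a peak (10.3%) had a long peak in replicate 1 and 7 of 25 (28%) in replicate 2. Fnip2 is an example with recurring long peaks in the 3' UTR (37 and 45 tags) and in an intron (45 and 41 tags).

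In the other lists the share of peaks lay within a few percentage points of that of all genes or rested on few peaks. Counted by genes with a peak, these lists ran from 0 to 18.2% with a long peak in replicate 1. In replicate 2 they ran from 20.7 to 33.3%. Over all genes with a peak it was 7.50% and 12.7%. The number of peaks per gene was not matched in this count. The share of peaks was 3.85% and 6.19% in the lysosome list and 3.01% and 7.07% in the actin and adhesion list. It was 5.49% and 6.90% in the macrophage identity list. It was 3.33% and 7.64% in the list of PPARG and alternative activation genes. Among giant coding genes it was 3.05% and 4.12%, below all genes in both libraries. The classical activation list had 0 long peaks of 24 (0%) and 4 of 33 (12.1%), those 4 in Irf5, Ccl3 and Nfkb1. The m6A machinery list had 2 of 33 (6.06%) and 6 of 48 (12.5%). Ythdf3, the gene of a cytoplasmic m6A reader, had intronic long peaks of 17 and 30 tags that shared 376 nt, with summits 713 nt apart. Adgre1, which encodes the macrophage marker F4/80, had 2 and 1 intronic long peaks. Atp6v0d2, a subunit gene of the lysosomal proton pump, had 1 in each library, of 38 and 39 tags, in intron 2 (19730 nt). They lay at different sites, with midpoints 8.06% and 85.5% of the way along the intron.

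The labelled cell type was checked by which markers had any sense peak. Among 6 macrophage markers 4 and 5 had one, while Lyz2 had none in either library. Of the markers of other cells, Mpo had a peak in replicate 2, and Cd3e and Col1a2 had a peak in replicate 1. No marker of B cells or dendritic cells had a peak, and Adgre1 was the only macrophage marker with a long peak, which it had in both libraries. A peak list holds no expression values, so the absence of a peak is not the absence of the RNA. Binding of IGF2BP2 and the abundance of an RNA cannot be told apart in these peak lists.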

How the data were processed

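RNA bound to IGF2BP2 in mouse BMDMs was sequenced in 2 immunoprecipitation libraries, and the 2 input libraries were not analysed here. The submitters' processing notes list bcl2fastq, TopHat2 and build GRCm38. How peaks were called, at what threshold and whether against input is not given in the sources used here. The authors deposited for each peak of a library a whole, unnormalised tag count, a maximum height (a coverage signal in tags), and other values: length, summit, gene identifier and the make-up by transcript region, per the file headers. The lists hold no fold or p-value, library depth is unknown, and tags in peaks are not a library size. The lowest tag count was 3.

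From these, long peaks (500 nt or more, under 50 tags, no mitochondrial chromosome) were compared with peaks under 500 nt and under 50 tags, within each library. A peak's region was the class covering most of it. Weighted values give shorter peaks the tag counts of the long peaks (direct standardisation). A peak recurred where 1 bp or more was shared with a same-strand peak of the other library. Shares have exact Clopper-Pearson 95% intervals (scipy 1.17.1), which cover counting error only. Peaks are not replicates, so no p-value was computed; spread is over n = 2 libraries. Introns, exons and UTRs came from 1 representative transcript per gene of GENCODE release 21. Software was pandas 2.3.3 and numpy 2.4.6 under Python 3.11.15, and the computations were tested on simulated data. Genes named were Tsc1, Pparg, Igf2bp2, the 15 with most long peaks (at least 1 in each library), the 10 long pairs with most tags and the 10 with the longest shared stretch, and up to 3 per list. The members, the gene lists and this rule were chosen with earlier results of these data known.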

Additional observations from a re-analysis of the deposited data

How the results depend on the processing

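Values here are differences between long and shorter peaks in percentage points, as means over the 2 libraries. For the stacked share, with -50.8 as reported, the difference was -44.1 with a minimum length of 400 nt, -56.7 with 600 nt, -49.0 under 30 tags, -31.6 with at least 10 tags and -24.5 weighted to the tag counts of the long peaks. For the coding share, with -29.0 as reported, it was -29.2 at 600 nt, -27.9 under 30 tags, -39.2 with at least 10 tags, -44.0 weighted, -28.8 against all other nuclear peaks and -22.5 over peaks wholly in 1 class. For the intron share, with 25 as reported, it was 27.5 at 600 nt, 22.0 under 30 tags, 27.8 weighted and 19.5 over peaks wholly in 1 class. For the 3' UTR share it was 7.74 over peaks wholly in 1 class, against 11.6 as reported. The share touching more than 1 class differed by 3.17 as reported, 4.88 at 400 nt, 0.726 at 600 nt, 1.52 under 30 tags and 2.37 against all other nuclear peaks. It reversed to -10.4 with at least 10 tags and -22.5 weighted, with fewer peaks of low tag count in the comparison. The overlapped share differed by 22.7 as reported, 1.24 with at least 10 tags, 9.47 with overlap of at least 50% of both peaks and 5.21 by summits within 100 nt. It reversed to -14.8 weighted, and to -27.7 weighted by summits, an alternative chosen after seeing the data. The mean number of long peaks, 1055, became 2014 at 400 nt, 586.5 at 600 nt and 693 under 30 tags. Without each replicate in turn the ranges were -51.5 to -50.0 for the stacked share, -29.0 to -28.9 for coding, 23.4 to 26.6 for intron, 10.5 to 12.7 for 3' UTR, 2.74 to 3.60 for more than 1 class and 18.9 to 26.6 for overlap. The share with a long partner ran from 10.1 to 21.5% and the number from 670 to 1440. Under the alternatives that kept both libraries, 23 other values moved by less than the spread between the libraries or, for the number of long peaks, by less than 1.5 times. No paired analysis was possible because only immunoprecipitates were analysed and no fit was made. With 1 group of 2 libraries of unknown depth, no comparison of conditions can be made.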
